A study of Homo sapiens with 4 samples.

Results

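The vascular endothelial growth factor (VEGF) family was examined as 9 genes chosen by name: the ligands VEGFA, VEGFB, VEGFC and PGF, the receptor tyrosine kinases FLT1 (VEGFR1), KDR (VEGFR2) and FLT4 (VEGFR3), and the coreceptors NRP1 and NRP2. All 9 were found among the 58735 genes of the tables. Of these, 7 had at least 10 reads in at least 1 library and were tested with the 19895 genes that met this minimum, while FLT1 and KDR did not.

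RNA-seq was performed on MHCC-97H cells, an established human hepatocellular carcinoma (HCC) line of wild-type genotype, all of batch 1 and harvested after 24 h. In the PBS group the cells received the vehicle. In the other groups they received 2 μg of migrasomes (Migs), the vesicular organelles that migrating cells leave behind on their retraction fibres. Normo-Migs came from normoxic MHCC-97H cells, hypo-Migs from hypoxic MHCC-97H cells, and CD147KO-Migs from hypoxic MHCC-97H cells whose CD147 had been knocked out, so that the knockout lay in the donor cells and none of these libraries can check it. The labels give the donors of normo-Migs as normoxic and are followed here, although the main methods of the study name hypoxia for them. Each condition had 1 library, and a difference between libraries therefore has no replicate check.

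VEGF ligands are secreted dimers that act mainly on endothelial cells. VEGFA signals through KDR and is also captured by FLT1, PGF and VEGFB bind FLT1, and VEGFC acts on FLT4 and drives the growth of lymphatic vessels. Neuropilins have no kinase of their own: they bind VEGFs and class 3 semaphorins and assist the signalling receptors, and VEGFA is a classical target of the hypoxia-inducible factors.

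Neuropilins recognise ligands by an arginine at the free carboxyl end, so the last codons of the ligand transcripts are shown here. These codons give the end of each form as translated, and whether a form binds a neuropilin was not tested. The lines below hold the last 30 coding bases before the stop codon, 5′ to 3′, from the GENCODE 29 transcripts (GRCh38), with the last codon in capitals. For VEGFA, 20 of the 26 coding transcripts with a stop codon ended with the arginine codon CGG (stop codon at chr6:43784560-43784562, plus strand), 3 ended with the aspartate codon GAC (stop codon at chr6:43784626-43784628) and 3 with the methionine codon ATG. For VEGFB, 1 of 3 ended with the arginine codon AGG (stop codon at chr11:64238375-64238377, plus strand) and 2 with the alanine codon GCT (stop codon at chr11:64237631-64237633). All 4 coding transcripts of PGF ended with AGG (stop codon at chr14:74942706-74942708, minus strand). The single VEGFC transcript encodes a precursor that proteases trim, so its last codon is not that of the mature ligand.
VEGFA-205: cgtacttgcagatgtgacaagccgaggCGG
VEGFA-213: cgtacttgcagatctctcaccaggaaaGAC
VEGFB-202: gacacctgcaggtgccggaagctgcgaAGG
VEGFB-201: gcagcttcctccgttgccaagggcgggGCT
PGF-203: gaaaggtgcggcgatgctgttccccggAGG
Reads were counted per gene, so the forms with and without the terminal arginine could not be told apart in any library.

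Reads on genes numbered from 33882496 to 40285223 per library. The library labelled PBS, called the PBS library from here on, stood apart from the others. Its labels give the same line and batch, and whether it differs from the Mig libraries in anything besides the treatment cannot be told apart here. Against it, 16.5% of the genes tested were higher and 10.7% lower in the normo-Migs library, 17.4% and 10.9% in that of hypo-Migs, and 16.6% and 10.9% in that of CD147KO-Migs, by the criteria of an adjusted p up to 0.05 and a log2 fold change of 1 or more in either direction. The same criteria picked 4.9%, 5.04% and 4.91% of the genes, in either direction, between hypo-Migs and normo-Migs, hypo-Migs and CD147KO-Migs, and normo-Migs and CD147KO-Migs. In CPM, reads scaled to the size of a library, the summed level of 9 mesenchymal markers was 27.7 under PBS and 550 to 597 under the Migs, and 5 of the 8 tested passed as higher with hypo-Migs, SPARC (0 reads against 16845) and THY1 (11 against 2082) among them, whereas ACTA2, COL3A1 and TAGLN did not pass and COL1A2 had 2 reads or fewer in each library. Of the 12 hepatocyte markers, ALB, AFP, APOB and TTR had 0 reads in all libraries, although the cells are labelled as hepatocellular. The 12 summed to 5.14 CPM under PBS and 21.6 to 29.2 CPM under the Migs, and without FGB the rest summed to 5.14 CPM and 5.35 to 7.17 CPM. The 12 endothelial markers summed to 65.3 CPM and 85.2 to 91.3 CPM. Most of this was EGFL7 (28.8 CPM and 32.9 to 37.4 CPM) and ENG (25.6 CPM and 41.2 to 48.2 CPM). Of the 9 tested, 2 passed as higher and 2 as lower with hypo-Migs (22.2% each, beside 17.4% and 10.9% of all genes). PROX1, LYVE1 and PDPN, markers of lymphatic endothelium, had 0 reads in all libraries. The part of these differences in the results below was not tested. Values of the Mig libraries are listed in the order normo-Migs, hypo-Migs and CD147KO-Migs.

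Levels are given in FPKM, in which reads are divided by gene length and library size, so that genes can be compared. VEGFB had the highest level of the family in each library, with 32.1 FPKM under PBS and 23.9, 26.6 and 27.2 FPKM under the Migs. VEGFA came next with 19.5 FPKM under PBS and 8.90, 9.11 and 8.28 FPKM under the Migs. In the PBS library, NRP2 (4.40 FPKM), VEGFC (3.25), NRP1 (1.11), FLT4 (0.575) and PGF (0.0776) followed, and no 95% intervals of neighbours in this order overlapped.
In the Mig libraries NRP1 (4.81 to 5.11 FPKM) stood above VEGFC (4.51 to 5.05) and NRP2 (4.07 to 4.47), but the intervals of NRP1 and VEGFC overlapped in all 3, and those of VEGFC and NRP2 overlapped with normo-Migs and CD147KO-Migs. PGF (0.337 to 0.532 FPKM) stood above FLT4 (0.182 to 0.296), with overlapping intervals in the hypo-Migs library. Intervals and detection floors in this text cover counting error only, since no molecular identifiers mark the reads that come from 1 molecule.
The order of VEGFB and VEGFA, and in the Mig libraries that of VEGFC and NRP2, depended on the length used. The authors' length for VEGFA was 14431 bases, all merged exons including those of transcripts with retained introns, against 3535 bases for its longest coding transcript, whereas the lengths for VEGFB were 1545 and 1380 bases. With reads divided by the length of the longest coding transcript instead, a choice made after seeing the data, VEGFA reached 81.3 under PBS and 36.1, 37.4 and 34.1 under the Migs. VEGFB then reached 36.7 under PBS and 26.6, 29.9 and 30.7 under the Migs, which puts VEGFA first in each library. NRP2 reached 8.82, 8.54 and 9.40 under the Migs and VEGFC 5.26, 5.95 and 5.57, the reverse of their FPKM order. NRP1 reached 9.39, 10.1 and 9.50, further above VEGFC than in FPKM.

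Against the PBS library, 4 of the 7 family genes tested passed both criteria under normo-Migs, 3 under hypo-Migs and 4 under CD147KO-Migs. PGF and NRP1 were higher in each contrast, 2 of 7 (28.6%), beside the 16.5% to 17.4% of all genes given above. VEGFA was lower in each contrast and FLT4 in those of normo-Migs and CD147KO-Migs, beside 10.7% to 10.9% of all genes. The 3 contrasts share the PBS library, so a gene that is unusual in that library differs in all of them. The p-values below come from the exact binomial test of edgeR on 2 libraries, with Benjamini-Hochberg adjustment over all genes tested, and compare those libraries rather than the conditions. With an assumed coefficient of variation of 0.4 between libraries, or with DESeq2 taking the spread from all 4 libraries, 0 of the 7 genes passed in each contrast.

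VEGFA, the main inducer of new blood vessels (chr6:43770184-43786487, plus strand), had 9734 reads under PBS and 4414, 5324 and 4224 under the Migs. This amounts to 287 CPM (95% Wilson interval 282 to 293) under PBS and to 128 (124 to 132), 132 (129 to 136) and 121 (117 to 124) CPM under the Migs. The PBS library was high and the Mig libraries lay close together below it. The log2 fold change was -1.12 (exact 95% interval -1.17 to -1.07) for normo-Migs, -1.09 (-1.14 to -1.04) for hypo-Migs and -1.23 (-1.28 to -1.17) for CD147KO-Migs, each past both criteria. In bulk RNA, fewer cells that express a gene and less of its RNA per cell cannot be told apart. VEGFA exceeded 83.4% of the protein-coding genes above 0 FPKM in the PBS library and 66.2% to 68.9% of them in the Mig libraries. These positions rest on the authors' length of 14431 bases, beside 3535 for the longest coding transcript, and were not computed with other lengths.

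PGF, placental growth factor (chr14:74941834-74955784, minus strand), changed the other way. It had 16 reads under PBS and 109, 84 and 71 under the Migs. The PBS library was the lowest and normo-Migs the highest. The log2 fold change was 2.65 for normo-Migs (2.02 to 3.64, adjusted p = 5.20e-18 by the exact binomial test of edgeR), 2.05 for hypo-Migs (1.39 to 3.05, adjusted p = 6.70e-10) and 2.00 for CD147KO-Migs (1.33 to 3.01, adjusted p = 5.48e-09). At 0.337 to 0.532 FPKM in the Mig libraries it remained the scarcest of the 4 ligands.

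VEGFB, a ligand of FLT1 linked to fatty acid uptake (chr11:64234538-64238793, plus strand), had 1716 reads under PBS and 1270, 1661 and 1486 under the Migs. Its log2 fold changes against the PBS library were -0.42 (-0.52 to -0.31), -0.26 (-0.36 to -0.17) and -0.23 (-0.33 to -0.13), beyond counting error and short of the fold criterion. VEGFC, the lymphangiogenic ligand (chr4:176683538-176792727, minus strand), had 272 reads under PBS and 375, 495 and 403 under the Migs. Its log2 fold changes were 0.48 (0.25 to 0.71), 0.64 (0.43 to 0.86) and 0.54 (0.32 to 0.77), likewise short of the fold criterion. Both ligands therefore moved by less than VEGFA and PGF, VEGFB downwards and VEGFC upwards.

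The make-up of the ligand reads differed accordingly. Of the reads on the 4 ligands, VEGFA held 82.9% (82.2 to 83.6) under PBS and 71.6%, 70.4% and 68.3% under the Migs. VEGFB held 14.6% under PBS and 20.6%, 22.0% and 24.0% under the Migs, VEGFC 2.32% and 6.08%, 6.54% and 6.52%, and PGF 0.136% and 1.77%, 1.11% and 1.15%. VEGFA thus held most of the ligand reads in each library, and a smaller share of them in each Mig library than under PBS. These are shares of 11738, 6168, 7564 and 6184 reads and not of molecules, since the genes differ in length.

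FLT1 had 0 reads in all 4 libraries (chr13:28300344-28495145, minus strand), and the only reads of KDR were 2 in the CD147KO-Migs library (chr4:55078259-55125595, minus strand). Where no read was counted, up to 3 remain possible, equal to 0.0745 CPM in the deepest library and 0.0885 CPM in the shallowest, and neither receptor exceeded that limit of 3 reads in any library. FLT4, the receptor of VEGFC (chr5:180601506-180649624, minus strand), was the receptor that could be tested. It had 176 reads under PBS and 67, 106 and 57 under the Migs. The PBS library was the highest and hypo-Migs the highest of the Mig libraries. The log2 fold change was -1.35 for normo-Migs (-1.80 to -0.96, adjusted p = 8.99e-12 by the exact binomial test of edgeR) and -1.61 for CD147KO-Migs (-2.10 to -1.21, adjusted p = 2.82e-15). For hypo-Migs it was -0.93 (-1.31 to -0.59, adjusted p = 1.41e-07), which missed the fold criterion.

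NRP1, the coreceptor of VEGFA and of class 3 semaphorins (chr10:33177492-33336262, minus strand), had 444 reads under PBS and 1909, 2385 and 1958 under the Migs. The Mig libraries again lay close together, this time far above the PBS library. NRP1 was 4.36-fold higher with normo-Migs (log2 fold change 2.12, 1.97 to 2.28, adjusted p = 4.64e-218 by the exact binomial test of edgeR), 4.62-fold higher with hypo-Migs (2.20, 2.06 to 2.36, adjusted p = 2.96e-258) and 4.35-fold higher with CD147KO-Migs (2.11, 1.97 to 2.27, adjusted p = 1.03e-219). It exceeded 31.3% of the protein-coding genes above 0 FPKM in the PBS library and 53.7% to 55.4% of them in the Mig libraries. The authors' length for NRP1 was 11522 bases, beside 5882 for its longest coding transcript, and these positions depend on it.

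NRP2, which pairs with FLT4 in lymphatic endothelium (chr2:205681990-205798133, plus strand), had 2116 reads under PBS and 2031, 2291 and 2195 under the Migs. Its log2 fold changes were -0.04 (-0.13 to 0.05), -0.10 (-0.19 to -0.02) and 0.03 (-0.05 to 0.12), the smallest differences of the family, with adjusted p = 0.431, 0.0269 and 0.536 by the exact binomial test of edgeR. Of the reads on both neuropilins, NRP1 held 17.3% (15.9 to 18.9) in the PBS library and 48.5%, 51.0% and 47.1% with normo-Migs, hypo-Migs and CD147KO-Migs. Antisense genes share 561 exon bases with NRP1, 188 with VEGFA and 147 with NRP2, at most 4.87% of the exon bases of each, and how strands were counted is not given in the sources used here. The partner genes of NRP1 and VEGFA had 0 to 3 reads, and that of NRP2 had 18 reads under PBS and 0 to 2 under the Migs.

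**Figure D1:**
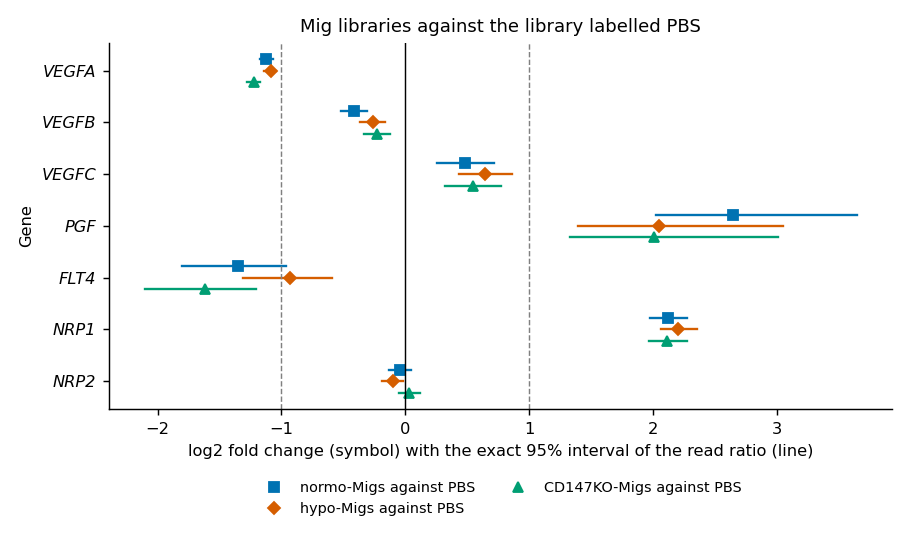
log2 fold change of the 7 tested genes in each Mig library against the PBS library (symbols), with exact 95% intervals of the read ratio (lines) and dashed lines at the fold criterion of 1 in either direction. PGF (2.00 to 2.65) and NRP1 (2.11 to 2.20) lie to the right, VEGFA (-1.23 to -1.09) and FLT4 (-1.61 to -0.93) to the left, and NRP2 (-0.10 to 0.03) near 0.

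The Mig libraries were then compared with each other, which leaves out the PBS library and asks whether donor hypoxia or donor CD147 went with a difference in the recipient cells. None of the 7 genes passed both criteria in any of these 3 pairs, against the 4.9% to 5.04% of all genes given above. Counting the adjusted p alone, hypo-Migs against normo-Migs had 1 of 7 genes higher and 1 lower, against 11.5% and 13.2% of all genes. VEGFB was higher with hypo-Migs (1661 reads against 1270, log2 fold change 0.15, 0.04 to 0.26, adjusted p = 0.0252 by the exact binomial test of edgeR). PGF was lower with hypo-Migs (84 reads against 109, log2 fold change -0.60, -1.04 to -0.19, adjusted p = 0.0200 by the exact binomial test of edgeR). VEGFA differed by 0.03 (-0.02 to 0.09) and NRP1 by 0.08 (-0.0027 to 0.17) between these libraries.

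Between hypo-Migs and CD147KO-Migs, whose donors differed in CD147, 2 genes were higher and 1 lower by the adjusted p alone, against 12.4% and 12.7% of all genes. VEGFA was higher with hypo-Migs by 0.14 (0.08 to 0.20, adjusted p = 8.37e-05 by the exact binomial test of edgeR) and FLT4 by 0.68 (0.22 to 1.19, adjusted p = 0.0162), while NRP2 was lower, with a log2 fold change of -0.13 (-0.22 to -0.05, adjusted p = 0.0115). The FLT4 difference rests on 106 and 57 reads. NRP1 (0.09, 0.00 to 0.17) and PGF (0.04, -0.43 to 0.52) did not pass, with adjusted p = 0.131 and 0.95 in the exact binomial test of edgeR.

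The donors of normo-Migs and CD147KO-Migs differed in both oxygen and CD147, whose parts cannot be told apart in this pair. Between these libraries, 2 genes were higher and 1 lower by the adjusted p alone, against 13.2% and 11.5% of all genes. VEGFA was higher with normo-Migs by 0.10 (0.04 to 0.16, adjusted p = 0.00647 by the exact binomial test of edgeR) and PGF by 0.64 (0.21 to 1.11, adjusted p = 0.0158), and VEGFB was lower at -0.19 (-0.30 to -0.08, adjusted p = 0.00520). NRP1 had a log2 fold change of 0.00 (-0.09 to 0.09) and FLT4 one of 0.26 (-0.26 to 0.81). PGF passed the adjusted p in both pairs with normo-Migs. FLT4 passed between hypo-Migs and CD147KO-Migs and not between hypo-Migs and normo-Migs (0.42, -0.03 to 0.89, adjusted p = 0.171 by the exact binomial test of edgeR). These pairs share libraries, so their calls are not independent. The adjusted p of each of these 8 calls reached 1 under at least 1 alternative that allowed for spread between libraries.

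**Figure D2:**
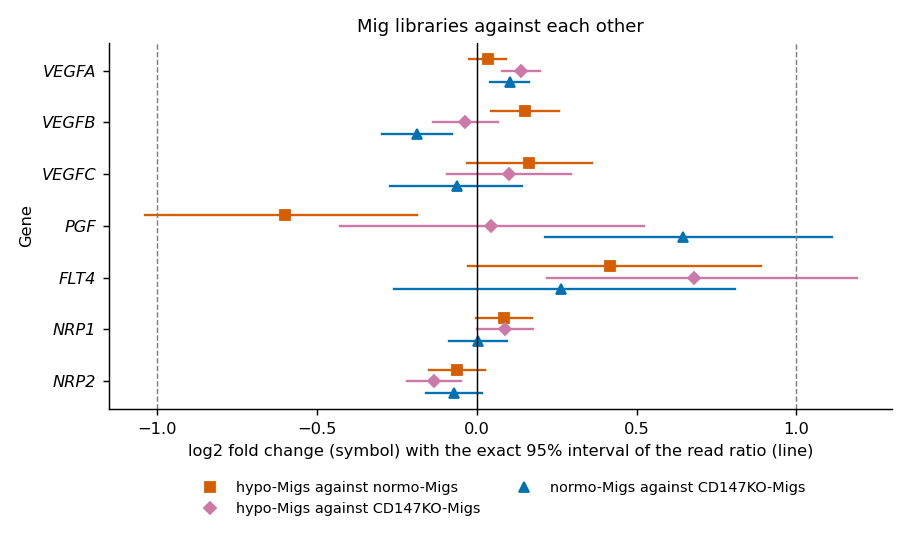
log2 fold change of the 7 tested genes between the Mig libraries (symbols), with exact 95% intervals of the read ratio (lines) and dashed lines at the fold criterion. The values run from -0.60 to 0.68, inside the criterion for each gene and pair, and the widest intervals belong to PGF and FLT4, the genes with the fewest reads.

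The wider pathway was read from lists written by hand. Besides VEGFD, the remaining ligand of FLT4, the nearest relatives of the VEGFs are the platelet-derived growth factors (PDGFs), whose receptors recruit pericytes to vessels. Of 7 genes tested in this arm, 4 were higher and 0 lower under hypo-Migs than in the PBS library (57.1% and 0% beside 17.4% and 10.9% of all genes), with a median log2 fold change of 1.03 beside 0.04 for all genes tested. The counts were also 4 and 0 with normo-Migs (median 1.09, beside 16.5% and 10.7% of all genes) and with CD147KO-Migs (median 1.27, beside 16.6% and 10.9%). PDGFRB, the receptor of PDGF-B, had 70 reads under PBS and 1747, 2446 and 2166 under the Migs (log2 fold change 4.87, 4.57 to 5.27 for hypo-Migs). PDGFC had 59 reads under PBS and 424, 498 and 438 under the Migs (2.82, 2.47 to 3.27 for hypo-Migs), and PDGFRL, a receptor-like protein, 260 and 550, 618 and 641 reads (1.03, 0.82 to 1.25). PDGFRB is also a marker of mesenchymal cells, whose marker sum, given above, moved with it, and the part of that in these values was not tested. VEGFD itself had 17 reads under PBS and 24, 8 and 12 under the Migs, and of this arm it alone passed between Mig libraries, lower with hypo-Migs than with normo-Migs (-1.58, -3.19 to -0.62, adjusted p = 0.00785 by the exact binomial test of edgeR). VEGFD was singled out after its values were seen. That is 14.3% of the arm, beside 2.34% of all genes lower in this pair, and the call allows for counting error only.

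Genes that mature VEGFs or hold them in the matrix were split. Against the PBS library, 6 of 12 tested were higher and 2 lower for hypo-Migs (50% and 16.7% beside 17.4% and 10.9% of all genes, median 0.78), 5 higher and 2 lower with normo-Migs (41.7% and 16.7% beside 16.5% and 10.7%, median 0.38) and 5 higher and 4 lower with CD147KO-Migs (41.7% and 33.3% beside 16.6% and 10.9%, median -0.06). SULF2, a sulfatase that frees heparan sulfate-bound factors, had 11 reads under PBS and 1944, 2352 and 1841 under the Migs (log2 fold change 7.29, 6.68 to 8.53 for hypo-Migs). PLAU, the urokinase that converts plasminogen to plasmin, had 2 reads under PBS and 379, 526 and 517 under the Migs (6.86, 5.96 to 10.9). CTGF, which binds VEGFA, had 44 and then 205, 249 and 223 reads (2.23, 1.82 to 2.78). Between Mig libraries PCSK5, a proprotein convertase, and SULF1, a sulfatase, passed, and both are named after their values were seen. Of the 12 tested, 1 was higher with hypo-Migs than with normo-Migs (8.33% beside 2.56% of all genes). Against CD147KO-Migs, 2 were higher with hypo-Migs and 2 with normo-Migs (16.7% each, beside 2.57% and 2.36%). These calls rest on few reads and allow for counting error only. PCSK5 had 13, 37 and 0 reads, higher with hypo-Migs than with normo-Migs (1.16, 0.33 to 2.31) and lower with CD147KO-Migs than with either. SULF1 had 14, 14 and 2 reads, higher with hypo-Migs (1.84, 0.49 to 5.79) and normo-Migs (2.05, 0.72 to 6.03) than with CD147KO-Migs.

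Among the semaphorins, plexins and GIPC1 that work with neuropilins, 4 of 13 were higher and 2 lower under hypo-Migs than in the PBS library (30.8% and 15.4% beside 17.4% and 10.9% of all genes), with a median of 0.42 beside 0.04 for all genes. With normo-Migs and with CD147KO-Migs, 4 were higher and 1 lower (30.8% and 7.69%, beside 16.5% and 10.7%, and 16.6% and 10.9%, of all genes). SEMA3A, a repulsive ligand of NRP1, had 0 reads under PBS and 151, 167 and 175 under the Migs, at least 47.9-fold higher with hypo-Migs when the 0 is set to the floor of 3 reads. SEMA3F, a ligand of NRP2, had 663 reads under PBS and 2948, 3157 and 2432 under the Migs (log2 fold change 2.03, 1.91 to 2.16 for hypo-Migs). PLXND1, the plexin of vascular guidance, went down from 10024 reads to 5151, 5789 and 5254 (-1.01, -1.06 to -0.96 for hypo-Migs). It lay just short of the fold criterion with normo-Migs (-0.94) and CD147KO-Migs (-0.95). Between Mig libraries SEMA3D and PLXNA4 passed, named after their values were seen and both with few reads. Of the 13 genes, 1 was lower with hypo-Migs than with normo-Migs (7.69% beside 2.34% of all genes). Against CD147KO-Migs, 2 were lower with hypo-Migs (15.4% beside 2.47%). These calls allow for counting error only. SEMA3D had 35, 6 and 37 reads, lower with hypo-Migs than with normo-Migs (-2.40, -4.32 to -1.52) and CD147KO-Migs (-2.44, -4.36 to -1.56), and PLXNA4 had 8, 4 and 18 reads, lower with hypo-Migs than with CD147KO-Migs (-1.87, -4.39 to -0.76).

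Downstream of the receptors, the hypo-Migs library had 6 of 39 signalling genes higher and 2 lower than the PBS library, shares of 15.4% and 5.13% beside 17.4% and 10.9% of all genes, and the median was 0.01. The counts were 7 and 2 for normo-Migs and 5 and 3 for CD147KO-Migs. NFATC1, a transcription factor activated by calcineurin, had 6 reads under PBS and 294, 331 and 247 under the Migs (log2 fold change 5.18, 4.43 to 7.02 for hypo-Migs), and SRC, the tyrosine kinase, 122 and then 1556, 1669 and 1581 (3.54, 3.29 to 3.83). No gene of this list passed between any pair of Mig libraries.

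VEGFA was also set beside 22 other genes of the hypoxia response, mostly targets of the hypoxia-inducible factors but with the subunits HIF1A, EPAS1 and ARNT among them. More of them were lower than higher against the PBS library: 1 of 22 was higher and 7 lower under hypo-Migs (4.55% and 31.8% beside 17.4% and 10.9% of all genes, median -0.37), 1 and 7 with normo-Migs (4.55% and 31.8% beside 16.5% and 10.7%, median -0.40), and 1 and 8 with CD147KO-Migs (4.55% and 36.4% beside 16.6% and 10.9%, median -0.48). NDRG1, a stress-induced gene, had 41209 reads under PBS and 4892, 5958 and 4287 under the Migs (log2 fold change -3.01, -3.05 to -2.97 for hypo-Migs). ADM, the vasodilator adrenomedullin, had 2970 reads under PBS and 547, 783 and 605 under the Migs (-2.14, -2.26 to -2.03). CA12, a carbonic anhydrase, was the one that passed as higher, with 0 reads in the PBS library and 6173, 7732 and 6653 under the Migs. It was at least 2216-fold higher with hypo-Migs when the 0 is set to that floor. EPAS1 was also higher with hypo-Migs (log2 fold change 0.87, 0.82 to 0.91) but short of the fold criterion. Between Mig libraries no gene of the list passed both criteria. By the adjusted p alone, 11 of 22 were higher and 1 lower with hypo-Migs than with CD147KO-Migs (beside 12.4% and 12.7% of all genes, median 0.15), 7 higher and 2 lower than with normo-Migs (beside 11.5% and 13.2%, median 0.04), and VEGFA lay at 0.14 and 0.03 in these pairs. With normo-Migs, 8 were higher and 2 lower than with CD147KO-Migs (beside 13.2% and 11.5%, median 0.07), and VEGFA lay at 0.10. The adjusted p alone also calls small changes of genes with many reads. LDHA, for example, passed between hypo-Migs and CD147KO-Migs at 0.13 with 142619 and 113716 reads. These shares and those of all genes therefore differ in read depth as well.

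Over the 4 libraries, the genes whose relative levels lay nearest to those of each family gene were sought among 12186 protein-coding genes whose mean reached 50 reads. Likeness was measured by the largest deviation between the log2 CPM of both genes, each centred on its mean over the libraries. VEGFA was matched most closely by GDA (0.02, with 7198 reads under PBS and 3175, 3882 and 3091 under the Migs) and MET (0.04), and 80 genes lay within 0.1. NRP1 was nearest to GAREM2 (0.02, with 133 reads and then 579, 713 and 597) and NEBL (0.05), with 20 genes within 0.1. VEGFB was nearest to DAGLA and TDRD3, VEGFC to RCAN3 and ZNF33B, and NRP2 to PEX5 and LY6E, with 363, 358 and 849 genes within 0.1. FLT4 had 1 gene within 0.1, SENP8 (0.05, with 117 reads and then 44, 65 and 35), and PGF none, its nearest being CYB5R2 (0.13, with 15 reads and then 102, 84 and 77) and IGFBP1. With 4 libraries, of which 1 stands apart, few patterns can be told apart.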

How the data were processed

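Reads came from 4 RNA-seq libraries of the MHCC-97H line. The authors deposited raw counts, the reads counted on each gene without normalization, and FPKM, scaled by the authors to gene length and library size (their table also holds the gene length, in bases). Per the submitters' processing notes, CASAVA 1.8, fastp, HISAT2 2.0.5 and featureCounts 1.5.0-p3 were used with hg38; strand handling is not given in the sources used here. The labels name a SMARTER mRNA kit, whereas the supplementary methods describe poly-T beads and random hexamers.

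Counts were analysed in R 4.3.3 with edgeR 4.0.16: a minimum of 10 reads in 1 or more libraries, TMM scaling (factors 0.986 to 1.02), a prior count of 2, and the two-sided exact binomial test with Benjamini-Hochberg adjustment over 19895 genes. The paper's DEG criteria were kept, but its DESeq2 test needs replicates, so DESeq2 1.42.0 served as an alternative with all 4 libraries giving the spread. The edgeR test was tried on simulated counts with known fold changes. Those counts held counting error alone, so they cannot show how the test behaves with spread between libraries. Shares and levels carry 95% Wilson intervals, ratios exact 95% intervals. Python 3.11.15 with pandas 2.3.3, scipy 1.17.1 and matplotlib 3.10.9 was used for the rest. Coordinates and transcripts come from GENCODE 29, which matches the tables.

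Genes named from each list were up to 3 with the largest change between hypo-Migs and PBS among those that passed with a mean of at least 50 reads. 1 gene that met this rule is not reported here. The family genes and the 11 lists were chosen with earlier results of these data known. In all, 12 alternatives to the scaling, filter, prior count, unit and test were tried.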

Additional observations from a re-analysis of the deposited data

How the results depend on the processing

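The counts of family genes that passed kept within 1.5 times under 64 of 72 combinations of contrast and alternative. The 8 that moved were all contrasts with the library labelled PBS. The pairs of Mig libraries, with a count of 0 throughout, add to the 64 without showing that any call was stable. Against the library labelled PBS, 4 genes passed under normo-Migs, 3 under hypo-Migs and 4 under CD147KO-Migs. With log2(FPKM + 1), 2 passed for normo-Migs and 2 for CD147KO-Migs, since a pseudocount of 1 shrinks changes of genes with low FPKM. The count for hypo-Migs fell as well, though within 1.5 times. PGF, at 0.0776 FPKM under PBS and 0.348 under hypo-Migs, no longer reached the fold criterion there. With an assumed coefficient of variation of 0.4 between libraries, 0 passed in each of these contrasts, and NRP1 had an adjusted p of 0.110 to 0.139 in edgeR's test, and 2 passed in each at an unadjusted p. With DESeq2 and the spread taken over the 4 libraries, 0 passed in each, with adjusted p values for NRP1 of 0.544 to 0.565, and 2, 1 and 1 passed at an unadjusted p, where that spread includes the differences between conditions. Between the Mig libraries the count was 0 under each alternative. Of the single fold changes, 474 kept direction and call, 27 lost the call and 7 values reversed. NRP1 between normo-Migs and CD147KO-Migs moved from 0.00 to -0.017 with scaling by total reads on genes, -0.0020 with 10 reads required in every library and -0.0022 with protein-coding genes alone, and passed in none of them. The log2 ratio of the VEGFA level to the VEGFB level was -0.72 (PBS), -1.43 (normo-Migs), -1.54 (hypo-Migs) and -1.72 (CD147KO-Migs) in FPKM, and 1.15, 0.44, 0.32 and 0.15 with the length of the longest coding transcript, an alternative added after seeing the data. No paired analysis was possible because each condition has 1 library, and leaving out a library leaves no contrast. Counts limit PGF and FLT4 most, with 16 to 176 reads.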

Other observations

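Other regulators of blood vessels, listed by hand and outside the VEGF family, differed from the library labelled PBS as well. Of 19 tested, 9 were higher and 2 lower with hypo-Migs, 8 higher and 1 lower with normo-Migs, and 6 higher and 3 lower with CD147KO-Migs, which is 47.4% and 10.5%, 42.1% and 5.26%, and 31.6% and 15.8% beside 16.5% to 17.4% higher and 10.7% to 10.9% lower of all genes, with medians of 0.84, 0.75 and 0.80 beside 0.04, 0.03 and 0.03 for all genes. The genes named by size of change were inhibitors as well as inducers of vessel growth. VASH1, vasohibin, an inhibitor made by endothelial cells, had 4 reads under PBS and 456, 422 and 408 under normo-, hypo- and CD147KO-Migs. COL18A1, whose collagen yields the inhibitor endostatin, had 56 and 1266, 1391 and 1283 reads in the same order. MDK, the heparin-binding growth factor midkine, had 25 and 1051, 1169 and 1147 reads. Between the Mig libraries 1 gene of this list passed, ANGPT2, an antagonist of the endothelial receptor TIE2, with 27 reads with hypo-Migs and 6 with CD147KO-Migs (log2 fold change 1.68, 0.67 to 3.54, adjusted p = 0.00889 by the exact binomial test of edgeR), named after its values were seen. That is 5.26% of the genes tested in this list, beside 2.57% of all genes higher in this pair. The call allows for counting error only.

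Among the endothelial markers, PECAM1 (CD31) had 16 reads under PBS and 118, 146 and 131 under normo-, hypo- and CD147KO-Migs, whereas ESAM had 246 and 110, 124 and 81. CD14, the leukocyte marker that could be tested, had 14 and 47, 78 and 86 reads. FGB, a fibrinogen chain made by hepatocytes, had 0 and 561, 827 and 832 reads, whereas SERPINA1 (alpha-1-antitrypsin), of the same list, passed as lower in all 3 contrasts with PBS, with 25 and 2, 9 and 10 reads. TAGLN, a mesenchymal marker, had 123 and 164, 174 and 82 reads and was higher with normo-Migs than with CD147KO-Migs (log2 fold change 1.02, 0.65 to 1.44).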
